A study of Mus musculus with 32 samples.

Results

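The 7 prostaglandin synthesis genes described here, Ptgs1, Ptgs2, Ptgds, Ptges, Ptges2, Ptges3 and Ptgis, were chosen by name from the 13780 genes of the deposited table, and all 7 were present. They were followed through 32 RNA sequencing libraries of C57/BL6 mice, 4 in each of 8 groups. Males were either left without hormone (control) or given testosterone at 25 mg together with oestrogen at 2.5 mg under the skin and sampled after 2 weeks (T+E2). Each adult library came from 1 of 3 tissues: prostatic urethra, dorsal lateral prostate (DLP) or anterior prostate (AP), all flash frozen. The urogenital sinus (UGS), the embryonic tissue that gives rise to the prostate, came from male embryos at E16.5 and was cultured with testosterone, for 6 days per the labels, or without hormone. The labels give no age for the adults, and whether controls carried empty implants is not given in the sources used here. They also leave unsaid whether each library was its own mouse or explant, and the p-values then describe only how far the libraries at hand scattered. The 2 hormones were given together, so their effects cannot be told apart. Implants of this kind are a mouse model of benign prostatic hyperplasia.

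Prostaglandins are short-lived lipid signals. Cyclooxygenases oxidise arachidonic acid, released from membranes by phospholipases, to prostaglandin H2, and terminal synthases turn this shared intermediate into separate products. Ptgs1 encodes the cyclooxygenase that most tissues make continuously, and Ptgs2 the one usually induced by inflammation or growth signals. Ptges, Ptges2 and Ptges3 encode 3 enzymes that can form prostaglandin E2, of which Ptges is the inducible membrane enzyme and Ptges3 is also known as the Hsp90 co-chaperone p23. Ptgds encodes the lipocalin-type prostaglandin D synthase, which is also secreted and is abundant in the male genital tract, and Ptgis encodes prostacyclin synthase. Prostaglandins were first found in seminal fluid, to which the seminal vesicles and the prostate contribute.

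The promoters of the 4 genes called in a hormone comparison (Ptgs1, Ptgds, Ptges and Ptges3), and of Ptgs2 for its difference between tissues, are shown because testosterone and oestrogen act through receptors that bind DNA. Each is the 250 bases before the annotated start, read 5′ to 3′ on the gene's strand from RefSeq on GRCm38.p6. Capitals mark matches on either strand to the GC box GGGCGG (reverse complement CCGCCC), to the oestrogen response element arm GGTCA (reverse complement TGACC) or to the androgen response element arm TGTTCT (reverse complement AGAACA).
Ptgs1, chr2:36230176-36230425, plus strand: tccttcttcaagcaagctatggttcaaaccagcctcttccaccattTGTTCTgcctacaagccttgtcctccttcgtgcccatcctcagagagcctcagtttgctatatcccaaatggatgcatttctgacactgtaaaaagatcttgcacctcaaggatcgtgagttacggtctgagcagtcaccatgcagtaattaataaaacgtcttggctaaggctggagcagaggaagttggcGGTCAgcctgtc
Ptgs2, chr1:150099781-150100030, plus strand: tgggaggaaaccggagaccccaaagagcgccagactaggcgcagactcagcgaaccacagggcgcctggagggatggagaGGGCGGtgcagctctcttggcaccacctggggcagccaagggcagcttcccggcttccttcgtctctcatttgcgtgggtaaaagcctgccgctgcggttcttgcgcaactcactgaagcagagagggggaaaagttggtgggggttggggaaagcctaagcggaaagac
Ptgds, chr2:25469750-25469999, minus strand: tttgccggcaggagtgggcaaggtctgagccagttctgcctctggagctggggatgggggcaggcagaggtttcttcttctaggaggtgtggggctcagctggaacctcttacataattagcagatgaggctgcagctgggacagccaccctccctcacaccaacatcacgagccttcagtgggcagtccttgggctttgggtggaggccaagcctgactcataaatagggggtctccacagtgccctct
Ptges, chr2:30903298-30903547, minus strand: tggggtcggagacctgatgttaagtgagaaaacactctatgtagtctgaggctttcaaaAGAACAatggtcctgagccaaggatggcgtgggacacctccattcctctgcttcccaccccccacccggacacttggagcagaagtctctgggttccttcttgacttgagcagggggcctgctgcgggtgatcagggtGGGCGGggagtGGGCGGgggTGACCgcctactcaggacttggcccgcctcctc
Ptges3, chr10:128058732-128058981, plus strand: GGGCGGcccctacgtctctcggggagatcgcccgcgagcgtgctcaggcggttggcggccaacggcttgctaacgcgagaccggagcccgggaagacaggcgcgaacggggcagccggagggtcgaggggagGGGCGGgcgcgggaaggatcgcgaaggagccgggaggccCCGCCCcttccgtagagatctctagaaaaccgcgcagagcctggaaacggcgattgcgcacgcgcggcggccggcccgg
The Ptges window held 2 GC boxes, 1 GGTCA arm and 1 TGTTCT arm, the Ptgs1 window 1 GGTCA arm and 1 TGTTCT arm, the Ptges3 window 3 GC boxes, the Ptgs2 window 1 GC box, and the Ptgds window none of these. Among 32851 RefSeq promoter windows of the same length, 32.7% held GGGCGG, 35.2% GGTCA and 16.1% TGTTCT. The full palindromic oestrogen and androgen response elements, each a pair of such arms around 3 free bases, occurred in 0.0639% and 0.00913% of windows and in none of the 5 shown, nor did TATAAA (12.4% of windows) or CACGTG (6.02%). These matches describe letters only, and 6 of the 7 genes had a window in the table, Ptgis being the gene without one.

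Values are in TPM, a transcript abundance that corrects for length and sets each library to a common sum, so levels can be compared between genes. TPM keeps no depth, and the depth behind each value is unknown. Between 12289 and 13337 genes reached 1 TPM per library. In bulk tissue, fewer cells of a type and less RNA per cell cannot be told apart. Defining transcripts of prostate epithelium were present in the adult lobes, with Pbsn (probasin, an androgen-dependent secretion) at 49887.64 to 57693.13 TPM in AP control and 33173.6 to 52600.83 TPM in DLP control. The DLP libraries also held large amounts of seminal vesicle transcripts. The summed TPM of 8 seminal vesicle genes was 172400 to 236600 in DLP control and 152500 to 266500 in DLP T+E2, and all 8 genes were above 0 in each group. In AP it was 54220 in control library 9, 99150 in T+E2 library 17 and 72080 in T+E2 library 18, and 35.57 to 1988 in the other 5. All 8 urethra libraries held skeletal muscle transcripts (12 genes summing to 47650 to 77660 TPM). DLP T+E2 libraries 18 and 24 held 2446 and 2669 TPM of the same genes, against 281.8 to 864.3 TPM in the other 6 DLP libraries.

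**Figure D1:**
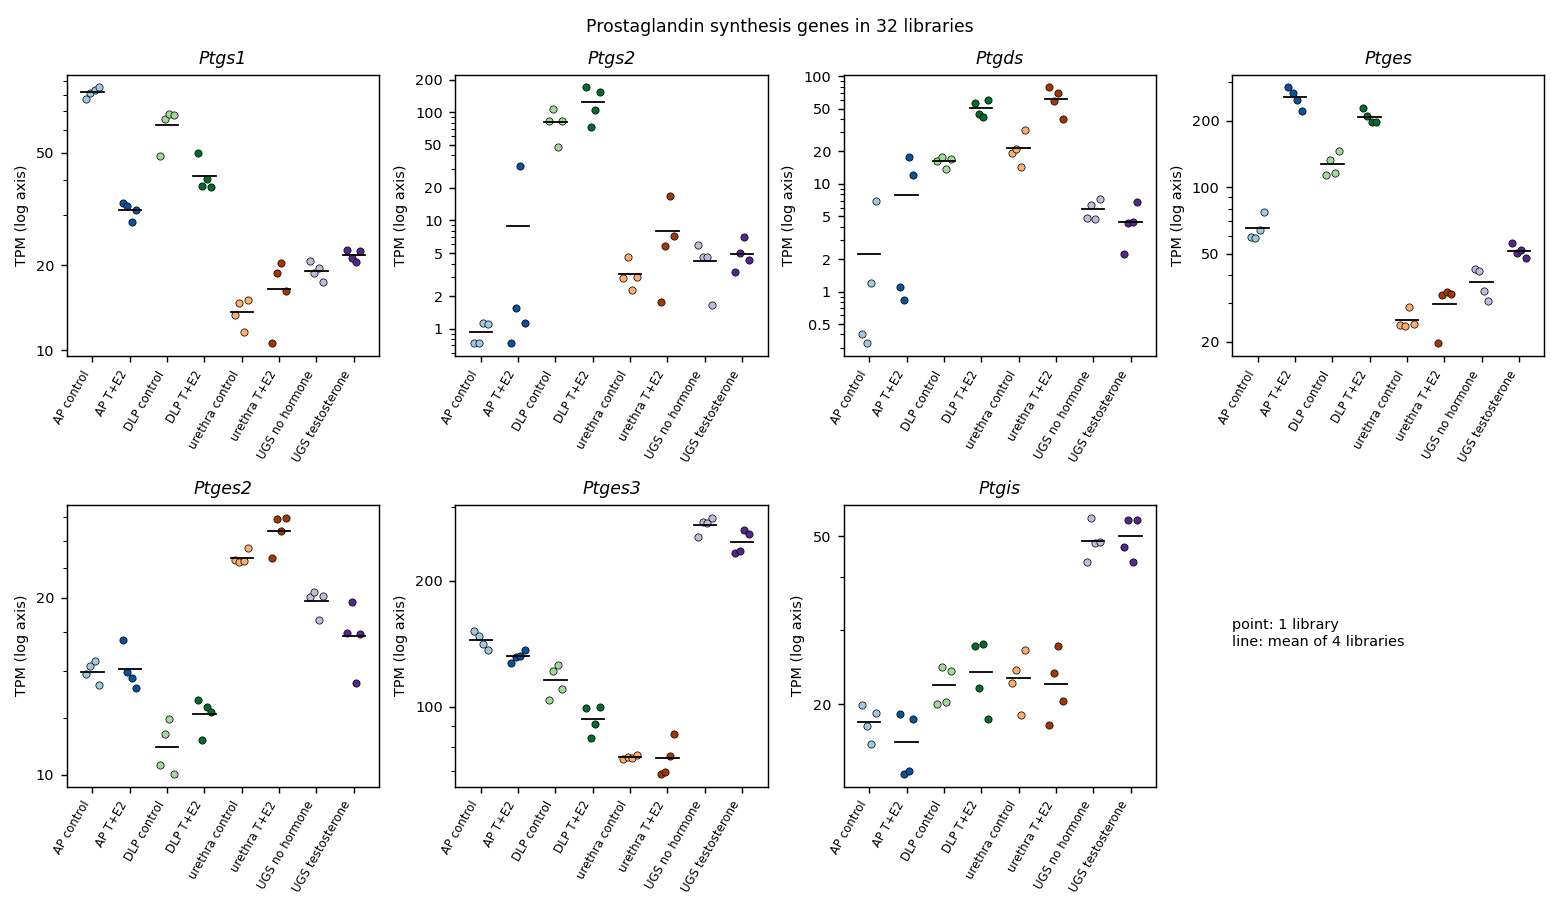
TPM of each of the 7 genes (log axis) by group; a point is 1 library and a line the mean of 4. Ptges stands highest in AP T+E2 and DLP T+E2, Ptgs2 in both DLP groups (47.81 to 169.8 TPM), and Ptges3 and Ptgis in UGS.

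Without hormone, the 3 adult tissues carried different sets of these genes. DLP held both cyclooxygenases at overlapping levels, AP held Ptgs1 almost alone, and the urethra held less Ptgs1 than either lobe, with Ptgs2 between them. The 12 untreated adult libraries were fitted together with limma on log2(TPM + 1), and a gene counted as called below 0.05 after Benjamini-Hochberg adjustment over all genes tested. Between AP and DLP 7 of the 7 genes were called, where 59.6% of 13356 genes were, between AP and urethra 7 of 7 (74.9% of all genes), and between DLP and urethra 5 of 7 (63.3%). With so many genes called, these counts are not particular to the pathway, and the sizes carry the description. Quantile normalization lost the AP and DLP call of Ptges3 (log2 difference 0.071, limma adjusted p = 0.242) as well as that of Ptgs1.

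Ptgs2 showed the widest range across tissues of the 7 genes. It stood at 83.76, 83.69, 106.69 and 47.81 TPM in DLP control libraries 10, 7, 8 and 9, and at 0.73, 0.74, 1.12 and 1.1 TPM in AP control libraries 6, 7, 8 and 9. Every DLP value was far above every AP value. The log2 difference of AP minus DLP was -5.36 ± 0.21 (SE; limma adjusted p = 4.87e-09). Urethra control lay between them at 2.28 to 4.61 TPM without overlap with either, 4.25 ± 0.21 below DLP and 1.11 ± 0.21 above AP on the log2 scale. Because every DLP library was rich in seminal vesicle transcripts, the part of that tissue in the DLP level of Ptgs2 was not tested among DLP libraries. Akr1b7, the mouse vas deferens protein, stood at 1003.26 to 2201.93 TPM in DLP control. It was at 20.45 to 69.18 TPM in urethra control and 0.37 to 6.28 TPM in AP control. The part of vas deferens tissue in the Ptgs2 levels was not tested either. AP control library 9 and AP T+E2 library 18, which held 54220 and 72080 TPM of the seminal vesicle genes, had Ptgs2 at 1.1 and 1.12 TPM, whereas AP T+E2 library 17, with 99150 TPM of them, had it at 32.09 TPM.

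Ptgs1 ran in another order. It was highest in AP control at 77.48 to 85.2 TPM, followed by DLP control at 48.66 to 68.84 TPM and urethra control at 11.57 to 15.02 TPM, and no 2 of these groups overlapped. AP exceeded urethra by 2.50 ± 0.11 and DLP exceeded urethra by 2.12 ± 0.11 on the log2 scale (limma adjusted p = 1.37e-10 and 1.23e-09). AP exceeded DLP by a log2 difference of 0.39 ± 0.11 (adjusted p = 0.00722), and quantile normalization reduced the difference to 0.145 (adjusted p = 0.149). Ptgs2 made up 0.902% to 1.32% of the summed cyclooxygenase TPM in AP control, 16.46% to 23.82% in urethra control and 41.0% to 63.2% in DLP control.

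The inducible prostaglandin E synthase Ptges followed DLP, AP, urethra in descending order, with control values of 113.55 to 146.13, 59.06 to 77.59 and 23.53 to 28.76 TPM and no overlap. The log2 differences were -0.96 ± 0.10 for AP minus DLP, 1.34 ± 0.10 for AP minus urethra and 2.30 ± 0.10 for DLP minus urethra (limma adjusted p = 7.69e-06, 5.35e-08 and 3.69e-10). Ptges3 was higher than Ptges in AP control (136.89 to 152.04 TPM) and urethra control (74.9 to 76.43 TPM), while in DLP control the ranges of both genes overlapped (103.9 to 125.92 TPM for Ptges3). Ptges2 had the lowest mean of the 3 in each untreated adult tissue, though in urethra control its range overlapped that of Ptges. It was highest in urethra control (23.0 to 24.35 TPM), then AP (14.18 to 15.59 TPM), then DLP (10.03 to 12.45 TPM), with each difference called and no overlap.

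Ptgds was low in untreated AP and higher in DLP and urethra. DLP control held 17.02, 16.32, 17.77 and 13.77 TPM in libraries 10, 7, 8 and 9, urethra control 31.46, 19.56, 21.13 and 14.45 TPM in libraries 10, 6, 7 and 8, and AP control 0.4, 0.33, 1.19 and 7 TPM in libraries 6, 7, 8 and 9. DLP and urethra overlapped, AP lay below both, and AP library 9 stood apart from the other 3. The log2 difference was -2.84 ± 0.44 for AP minus DLP and -3.19 ± 0.44 for AP minus urethra (limma adjusted p = 0.00013 and 1.87e-05). Without library 9 the differences were -3.42 and -3.77, and both were still called. DLP and urethra did not pass the test (log2 difference -0.35, 95% interval -1.31 to 0.61).

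Prostacyclin synthase Ptgis varied little among adult tissues, with control means of 18.2 ± 1.66 TPM in AP, 22.2 ± 2.39 in DLP and 23.1 ± 3.35 in urethra (SD, n = 4). AP was called lower than both (log2 differences -0.27 ± 0.11 and -0.32 ± 0.11; limma adjusted p = 0.0431 and 0.0147). The first call was lost on leaving out any of 5 of the 8 libraries compared: AP libraries 7, 8 or 9, or DLP libraries 8 or 10. The second was lost without urethra library 10. The embryonic UGS, which was not compared with adult tissue by a test because age and culture also differ, held Ptgis at 43.36 to 55.35 TPM and Ptges3 at 232.4 to 282.95 TPM. Both ranges lay above those of all 24 adult libraries. TPM is a share of a common sum, and the 10 highest genes of a library took unlike parts of it. They held 4.533% to 6.165% in UGS and 16.24% to 38.51% in adult libraries. The part of this in the UGS levels was not tested.

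**Figure D2:**
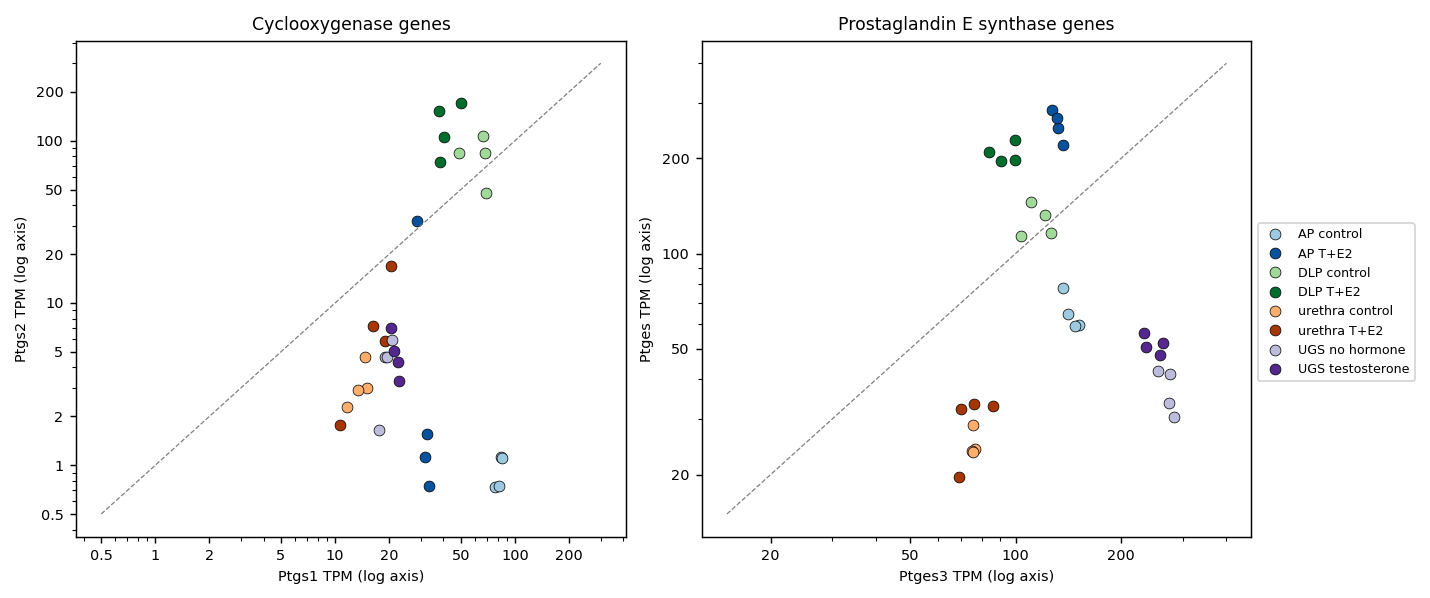
Left, Ptgs2 against Ptgs1 TPM; right, Ptges against Ptges3 TPM; both axes are logarithmic, each point is 1 of 32 libraries and the dashed line marks equal TPM. AP and DLP control lie apart in both panels, and all 4 AP T+E2 libraries lie above the line on the right, where all 4 AP control libraries lie below it.

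In AP, hormone implants moved 2 of the 7 genes in opposite directions: Ptgs1 fell and Ptges rose. The share of genes called in AP was 34.5% of 12525, so 2 of 7 is near the background, and the statements below rest on the size and replicate agreement of each gene. Groups did not overlap for 3 of the 7 genes (Ptgs1, Ptges and Ptges3), against 34.4% of all genes.

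Ptges stood at 59.53, 59.06, 64.33 and 77.59 TPM in AP control libraries 6, 7, 8 and 9 and at 283.84, 267.54, 249.54 and 220.91 TPM in AP T+E2 libraries 2, 3, 17 and 18. Every treated library was above every control by a wide margin. Ptges rose by a log2 difference of 1.96 ± 0.10 (limma adjusted p = 2.93e-07; 3.89-fold on the TPM + 1 scale), against a median of 0.075 over all genes. Ptgs1 stood at 77.48, 81.32, 83.55 and 85.2 TPM in control libraries 6, 7, 8 and 9 and at 33.34, 32.38, 28.39 and 31.45 TPM in T+E2 libraries 2, 3, 17 and 18. Each group was tight and they did not overlap. Ptgs1 fell by 1.36 ± 0.07 on the log2 scale (adjusted p = 2.06e-07).

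The share of Ptges in the summed TPM of the 3 prostaglandin E synthases was 26.3% to 33.9% in AP control and 59.5% to 66.3% in AP T+E2. Ptges2 did not pass the test (log2 difference 0.01, 95% interval -0.16 to 0.19). Ptges3 was at 136.89 to 152.04 TPM in control and 127.34 to 136.4 TPM in T+E2, without overlap but not called (log2 difference -0.13 ± 0.06, adjusted p = 0.109). It was called lower after median-of-ratios rescaling (-0.21, adjusted p = 0.0321). Ptgis did not pass the test either (-0.16, 95% interval -0.43 to 0.10).

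The Ptges and Ptgs1 differences were about as large without the 3 AP libraries rich in seminal vesicle transcripts. With libraries 9, 17 and 18 left out, 3 control and 2 treated libraries remained, and the log2 differences were 2.16 for Ptges (limma adjusted p = 1.81e-07) and -1.27 for Ptgs1 (adjusted p = 5.82e-06). Other marker sums moved with the treatment in AP. The urothelium list (5 of 7 genes in the table) summed to 234.4 to 269.2 TPM in control and 838.2 to 1334 TPM in T+E2, with 3 genes called higher. The fibroblast list (12 genes) went from 1538 to 1604 TPM to 2218 to 2417 TPM, with 4 genes called higher and 2 lower, and the smooth muscle list (12 genes) from 3906 to 5313 TPM to 3184 to 4334 TPM, with 5 called lower. The leukocyte list (6 of 10 genes in the table) summed to 156.9 to 484 TPM in control and 620.4 to 1177 TPM in T+E2, with 2 genes called higher (Cd52 and Ms4a1) and 3 lower (Ptprc, Coro1a and Itgb2). The macrophage list (9 of 10 genes) went from 321.5 to 377.5 TPM to 203.2 to 278.9 TPM, with 4 called lower, and the luminal epithelium list (11 genes) from 53640 to 61920 TPM to 15060 to 18880 TPM, with 2 called higher and 5 lower. Most of the luminal sum was Pbsn, which was at 11523.85 to 14831.02 TPM in AP T+E2, below all controls. Krt8, Epcam and Hoxb13 of that list fell less, from means of 401.7, 355.2 and 398.6 TPM to 290.8, 299.5 and 297.4 TPM. The part of these marker changes in the Ptges and Ptgs1 differences was not tested.

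Ptgds and Ptgs2 were not called in AP, and a few libraries set the spread of Ptgds and a single library that of Ptgs2. Ptgds stood at 1.1, 0.84, 17.69 and 12.22 TPM in T+E2 libraries 2, 3, 17 and 18, against 0.33 to 7 TPM in control. The 3 highest AP values, in T+E2 libraries 17 and 18 and control library 9, were those of the 3 libraries rich in seminal vesicle transcripts. The log2 difference was 1.22 ± 0.81 (limma adjusted p = 0.274). Ptgs2 stood at 0.74, 1.55, 32.09 and 1.12 TPM in T+E2 libraries 2, 3, 17 and 18, against 0.73 to 1.12 TPM in control. Only library 17 stood apart, and the log2 difference was 1.13 ± 0.77 (adjusted p = 0.282). Library 17 also held Akr1b7, an aldo-keto reductase known as the mouse vas deferens protein, at 746.68 TPM against 7.7 to 21.5 TPM in the other 3 treated libraries. There the epididymis and vas deferens list (3 of 12 genes in the table) summed to 394.3 TPM, against 19.74 to 78.59 TPM in the other 3 and 2.59 to 63.78 TPM in control, and 1 of its 2 tested genes was called higher in AP. Of 7 seminal vesicle genes tested in AP, 2 were called higher. Every DLP library held more Akr1b7 than library 17, at 1003.26 to 3732.31 TPM. In AP control Akr1b7 stood at 0.37 to 6.28 TPM, so every treated AP library lay above every control. The gene is also counted below among the other prostanoid synthases. Akr1b7 was singled out after its values were seen, and the part of such tissue in the Ptgs2 value was not tested.

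**Figure D3:**
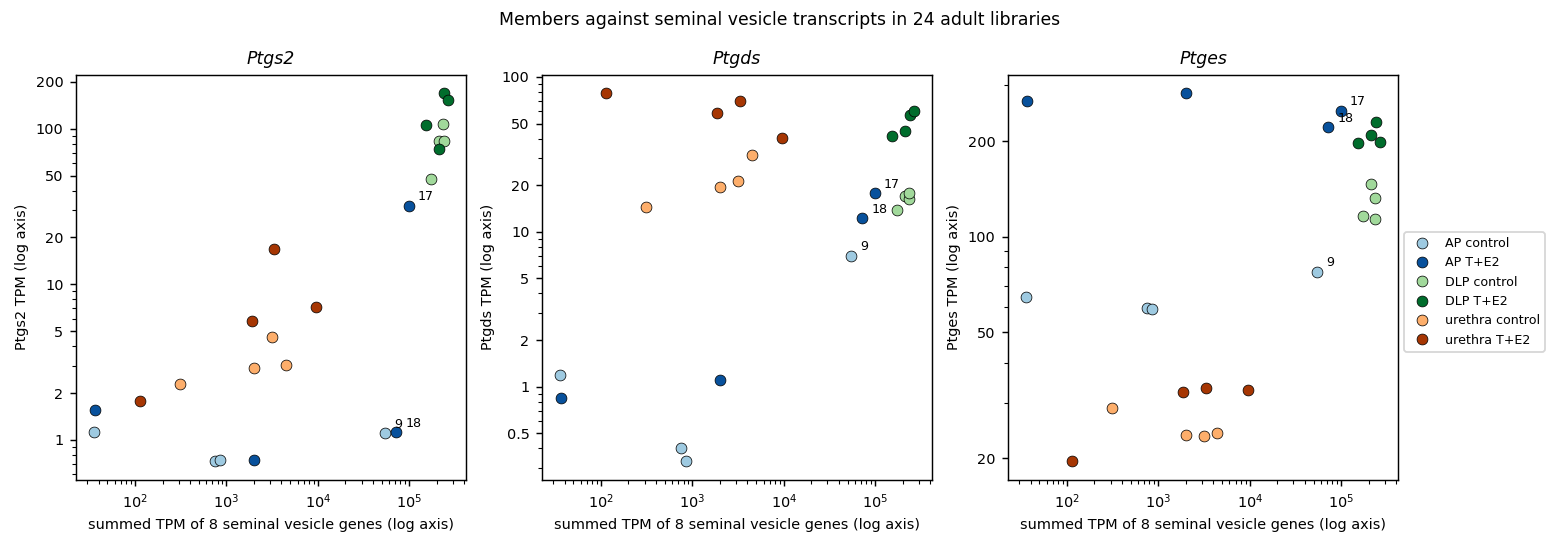
TPM of Ptgs2, Ptgds and Ptges against the summed TPM of 8 seminal vesicle genes in the 24 adult libraries, all axes logarithmic; AP libraries 9 (control), 17 and 18 (T+E2) are numbered. The 3 numbered AP libraries have the highest AP values of Ptgds, only library 17 is high for Ptgs2, and Ptges separates AP T+E2 from AP control at both low and high seminal vesicle content.

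In DLP, 4 of the 7 genes were called: Ptgds and Ptges rose, and Ptgs1 and Ptges3 fell. Of all 13108 genes tested 10.7% were called. Groups did not overlap for 3 of the 7 (Ptgds, Ptges and Ptges3), against 16.3% of all genes. Ptgds and Ptges had a large margin over replicate spread, while the falls were smaller and less stable.

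Ptgds stood at 17.02, 16.32, 17.77 and 13.77 TPM in DLP control libraries 10, 7, 8 and 9 and at 56.71, 44.8, 41.52 and 59.94 TPM in DLP T+E2 libraries 1, 2, 18 and 24. Every treated library was above every control. On the log2 scale the difference was 1.58 ± 0.13 (limma adjusted p = 2.58e-05; 2.98-fold), against a median of 0.018 over all genes. Seminal vesicle content overlapped between the 2 DLP groups. Within DLP T+E2 the order of Ptgds was that of the summed seminal vesicle TPM, from library 18 (152500 TPM) through 2 (213600 TPM) and 1 (241000 TPM) to 24 (266500 TPM). The single seminal vesicle genes Svs2 and Svs5 also had that order within DLP T+E2. Among DLP controls, described here by these single genes and not by the sum, Ptgds had the order of Svs2 but not that of Svs5. Svs5 was highest in library 7 (83770.98 TPM), where Ptgds was at 16.32 TPM, and stood at 72573.02 TPM in library 8, where Ptgds was highest. The part of that tissue in the Ptgds level was not tested.

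Ptges stood at 146.13, 113.55, 132.53 and 116.22 TPM in DLP control libraries 10, 7, 8 and 9 and at 229.4, 209.55, 196.86 and 198.33 TPM in T+E2 libraries 1, 2, 18 and 24, again without overlap. The rise was 0.72 ± 0.09 on the log2 scale (limma adjusted p = 0.000668). Its share of the 3 prostaglandin E synthases was 45.7% to 54.8% in control and 63.8% to 68.7% in T+E2. Treated AP and treated DLP overlapped in Ptges level (220.91 to 283.84 and 196.86 to 229.4 TPM), whereas the untreated lobes did not.

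Ptgs1 stood at 68.13, 48.66, 66.09 and 68.84 TPM in control libraries 10, 7, 8 and 9 and at 49.89, 38.12, 40.3 and 37.89 TPM in T+E2 libraries 1, 2, 18 and 24. Control library 7 lay among the treated values, so the groups overlapped. Ptgs1 fell by 0.58 ± 0.13 on the log2 scale (limma adjusted p = 0.0142). Ptges3 was at 103.9 to 125.92 TPM in control and 84.09 to 99.88 TPM in T+E2, and fell by 0.30 ± 0.08 (adjusted p = 0.0466). Without the 2 treated libraries rich in skeletal muscle transcripts, 18 and 24, the Ptgs1 and Ptges3 calls were lost (log2 differences -0.51 and -0.33, adjusted p = 0.112 and 0.144), while Ptgds at 1.58 and Ptges at 0.79 were still called. The Ptges3 call was also lost on leaving out any single DLP library except control 7.

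Ptgs2 stood at 47.81 to 106.69 TPM in DLP control and at 169.8, 73.78, 105.03 and 152.73 TPM in T+E2 libraries 1, 2, 18 and 24. The groups overlapped and the difference was not called (log2 difference 0.62, 95% interval -0.01 to 1.24; limma adjusted p = 0.21). Ptgs2 made up 65.9% to 80.1% of cyclooxygenase TPM in DLP T+E2, above the 41.0% to 63.2% of control. From control to T+E2 mean Ptgs2 went from 80.49 to 125.3 TPM and mean Ptgs1 from 62.93 to 41.55 TPM. The share itself was not tested. The epididymis and vas deferens list summed to 1037 to 1379 TPM in control and 1232 to 2738 TPM in T+E2 and none of its 3 genes passed the test. The urothelium list went from 292.6 to 304.6 TPM to 680.7 to 843 TPM, with 3 of 5 genes called higher. The luminal epithelium sum went without overlap from 35500 to 55430 TPM to 14350 to 16730 TPM, with 1 gene called higher and 1 lower. The latter was Pbsn, which made up most of the sum, at 12031.07 to 14218.13 TPM in T+E2. Krt8, Epcam and Hoxb13 of that list overlapped between groups, with means of 292.1, 204.5 and 232.9 TPM in control and 287.2, 217.9 and 190.3 TPM in T+E2. The leukocyte list overlapped between groups (1569 to 2163 and 1742 to 2612 TPM), with 1 gene called higher and 2 lower, and its pan-leukocyte gene Ptprc went from 5.25 to 12.58 TPM to 3.42 to 4.14 TPM. The macrophage list also overlapped (249.5 to 531.2 and 221.7 to 331.4 TPM), with 2 genes called lower. Their part in the DLP differences was not tested. Ptges2 and Ptgis did not pass the test (95% intervals -0.02 to 0.37 and -0.20 to 0.38).

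In the urethra, Ptgds was the 1 gene of the 7 that was called, where 0.362% of 12985 genes were. It stood at 31.46, 19.56, 21.13 and 14.45 TPM in control libraries 10, 6, 7 and 8 and at 78.78, 58.83, 69.69 and 40.3 TPM in T+E2 libraries 1, 2, 3 and 4. The groups did not overlap, as was the case for 1 of the 7 genes and for 8.1% of all genes. The rise was 1.48 ± 0.24 on the log2 scale (limma adjusted p = 0.0447; 2.80-fold), close to the threshold. The call was lost on leaving out control library 7 or 8 or T+E2 library 2 or 3, with log2 differences of 1.32 to 1.49 and a highest adjusted p of 0.141. Treated library 1 had the highest Ptgds and the least seminal vesicle transcript of the urethra libraries (112.5 TPM). The epididymis and vas deferens list summed to 641 to 781.1 TPM in urethra control and 1116 to 1957 TPM in T+E2, with 1 of 2 tested genes (Wfdc15b) called higher. The skeletal muscle genes summed to 47650 to 56450 TPM and 58490 to 77660 TPM. Neither pair of ranges overlapped, and their part in the Ptgds difference was not tested.

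The other 6 genes did not pass the test in the urethra. Ptges stood at 24, 23.69, 23.53 and 28.76 TPM in control libraries 10, 6, 7 and 8 and at 19.6, 32.34, 33.44 and 32.84 TPM in T+E2 libraries 1, 2, 3 and 4. T+E2 library 1 was below all controls and the other 3 above them (log2 difference 0.21, 95% interval -0.15 to 0.57). Library 1 was also the lowest treated library for Ptgs1 (10.58 TPM against 16.22 to 20.33) and Ptgs2 (1.77 TPM against 5.81 to 16.9). The 95% intervals of the log2 difference were -0.17 to 0.62 for Ptgs1 and -0.22 to 1.85 for Ptgs2, and those of Ptges2, Ptges3 and Ptgis lay within -0.37 to 0.29.

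In UGS cultured with testosterone, 0 of the 7 genes were called by limma, where 1.73% of 13304 genes were. Ptges stood at 42.52, 41.54, 33.78 and 30.49 TPM without hormone in cultures A, C, D and H and at 56.17, 50.5, 52.13 and 47.85 TPM with testosterone in cultures B, C, G and H. Each testosterone culture was above each culture without hormone, the only non-overlapping pair among the 7 genes, against 10.8% of all genes. The log2 difference was 0.48 ± 0.12 (unadjusted p = 0.00252, adjusted p = 0.0864), and the median over all genes was 0.17 in the same direction. That median became -0.002 after median-of-ratios rescaling, and the Ptges difference became 0.30 (adjusted p = 0.128). Leaving out testosterone culture H gave Ptges an adjusted p of 0.0203 by limma. That fit called 4091 genes of the table higher and 445 lower, against 190 and 40 with all cultures, so the gained call is not particular to Ptges. No other member had an unadjusted p under 0.05, and Ptgds, at 4.74 to 7.29 TPM without hormone and 2.25 to 6.83 TPM with it, had an interval of -0.95 to 0.21.

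**Figure D4:**
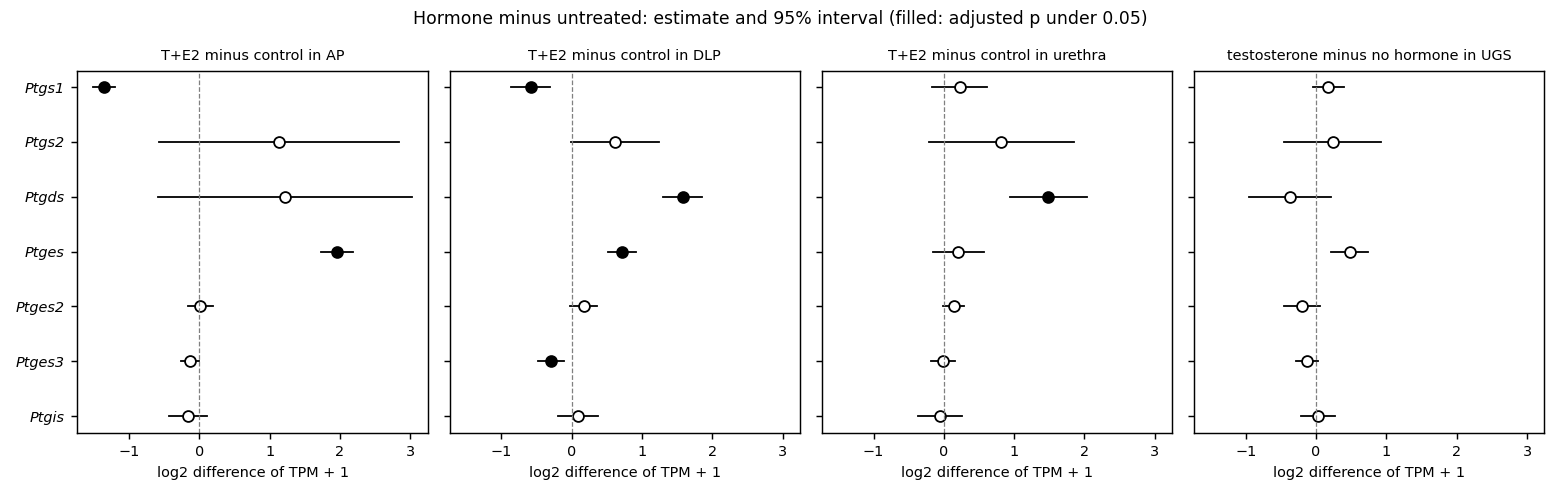
Log2 difference of TPM + 1 between hormone and untreated libraries for the 7 genes in each tissue (4 against 4 libraries); points are limma estimates, lines 95% intervals, and filled points have an adjusted p under 0.05. Ptges lies right of 0 in AP and DLP, Ptgs1 left of 0 in AP and DLP, and Ptgds right of 0 in DLP and urethra with a wide interval in AP.

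Whether the hormone effect differed between tissues was tested in 1 fit of the 24 adult libraries. Between AP and DLP 2 of the 7 genes were called, where 10.5% of 13469 genes were: Ptges rose by 1.24 ± 0.19 more in AP (limma adjusted p = 0.000103) and Ptgs1 fell by 0.77 ± 0.20 more in AP (adjusted p = 0.0155) on the log2 scale. Between AP and urethra 2 were called (24.4% of all genes), with the Ptges effect 1.75 ± 0.19 higher and the Ptgs1 effect 1.58 ± 0.20 lower in AP (adjusted p = 3.39e-07 and 4.02e-06). The median difference over all genes in that contrast was 0.12, and -0.02 after median-of-ratios rescaling. Between DLP and urethra 1 was called (3.64% of all genes), Ptgs1, which was 0.81 ± 0.20 lower in DLP (adjusted p = 0.0263). That call was lost on leaving out DLP control library 9 or 10, DLP T+E2 library 24, urethra control library 8 or urethra T+E2 library 2. The 3 contrasts share libraries and are not independent.

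The Ptgds effect was not shown to differ between tissues with all libraries. Its difference between DLP and urethra was 0.09 on the log2 scale (95% interval -1.63 to 1.82), an interval too wide to show likeness. Without the 3 AP libraries rich in seminal vesicle transcripts, the Ptgds effect in AP was lower than in DLP by 1.28 (limma adjusted p = 0.0248) and lower than in urethra by 1.18 (adjusted p = 0.0201). Those 3 libraries held the highest Ptgds values in AP. The AP libraries kept, 3 control and 2 treated, stood at 0.33 to 1.19 and 0.84 to 1.1 TPM, near the floor of log2(TPM + 1). The fit therefore cannot tell a smaller AP effect from a level near the floor. In the same fit the AP to DLP difference of Ptgs1 was no longer called (-0.69, adjusted p = 0.0837), and that of Ptges was 1.44 (adjusted p = 0.000123).

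The genes that feed, clear and sense prostaglandins were followed in 5 lists of 67 genes, of which 44 were in the table. The receptor list had 3 of its 10 genes there, including Ptgfrn, which does not itself encode a prostanoid receptor. In AP, enzymes of arachidonate release had 5 genes called higher and 2 lower of 11 tested (median log2 difference 0.27), other prostanoid synthases 2 higher of 7 (median -0.004), breakdown and transport 3 higher and 2 lower of 8 (0.11), receptors 3 lower of 3 (-0.53) and the lipoxygenase branch 4 higher of 10 (0.30), against a median of 0.075 over all genes, of which 34.5% were called. In DLP the same lists had 1 lower of 12 (0.09), 1 higher of 8 (0.09), 1 higher of 8 (0.03), 1 lower of 3 (-0.13) and 1 higher of 12 (0.23), against 0.018 over all genes, of which 10.7% were called. In the urethra limma called 0 of the 42 genes tested (5 at an unadjusted p under 0.05), where 0.362% of all genes were called, and in UGS 1 other synthase lower of 7, 2 breakdown and transport genes higher of 8 and 1 lipoxygenase branch gene higher of 12, where 1.73% of all genes were called.

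The receptor Ptger3, a receptor for prostaglandin E2, fell in both lobes. It stood at 57.11 to 61.67 TPM in AP control and 41.78, 18.25, 40.12 and 35.93 TPM in AP T+E2 libraries 2, 3, 17 and 18 (log2 difference -0.84 ± 0.21, limma adjusted p = 0.012). In DLP it stood at 10.82 to 17.96 TPM in control and 5.32 to 6.95 TPM in T+E2 (-1.19 ± 0.15, adjusted p = 0.000481). Neither pair of groups overlapped. In the urethra it was below 1 TPM in all 8 libraries and was not tested. Also on the receptor list was Ptgfrn, which encodes an inhibitor of prostaglandin F receptor binding. Its level fell by 0.53 ± 0.07 in AP on the log2 scale (limma adjusted p = 0.000213).

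Slco2a1, the prostaglandin uptake transporter, rose in both lobes. It went from 7.33, 7.97, 8.4 and 20.74 TPM in AP control libraries 6, 7, 8 and 9 to 24.22 to 48.27 TPM in AP T+E2, and from 62.59 to 75.34 TPM to 104.05 to 139.18 TPM in DLP. No treated library overlapped its controls, and the log2 differences were 1.79 ± 0.30 and 0.74 ± 0.10 (limma adjusted p = 0.00109 and 0.000991). AP control library 9, rich in seminal vesicle transcripts, was the highest AP control. Hpgd, the dehydrogenase that inactivates prostaglandins after uptake, rose in AP from 148 ± 13.9 to 217 ± 18.1 TPM (SD, n = 4; log2 difference 0.55 ± 0.09, adjusted p = 0.000663). In DLP, at 333 ± 20.7 and 355 ± 40.3 TPM, it did not pass the test. In UGS it rose with testosterone from 6.52 to 8.79 TPM to 14.43 to 19.23 TPM (1.05 ± 0.14, adjusted p = 0.00517).

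**Figure D5:**
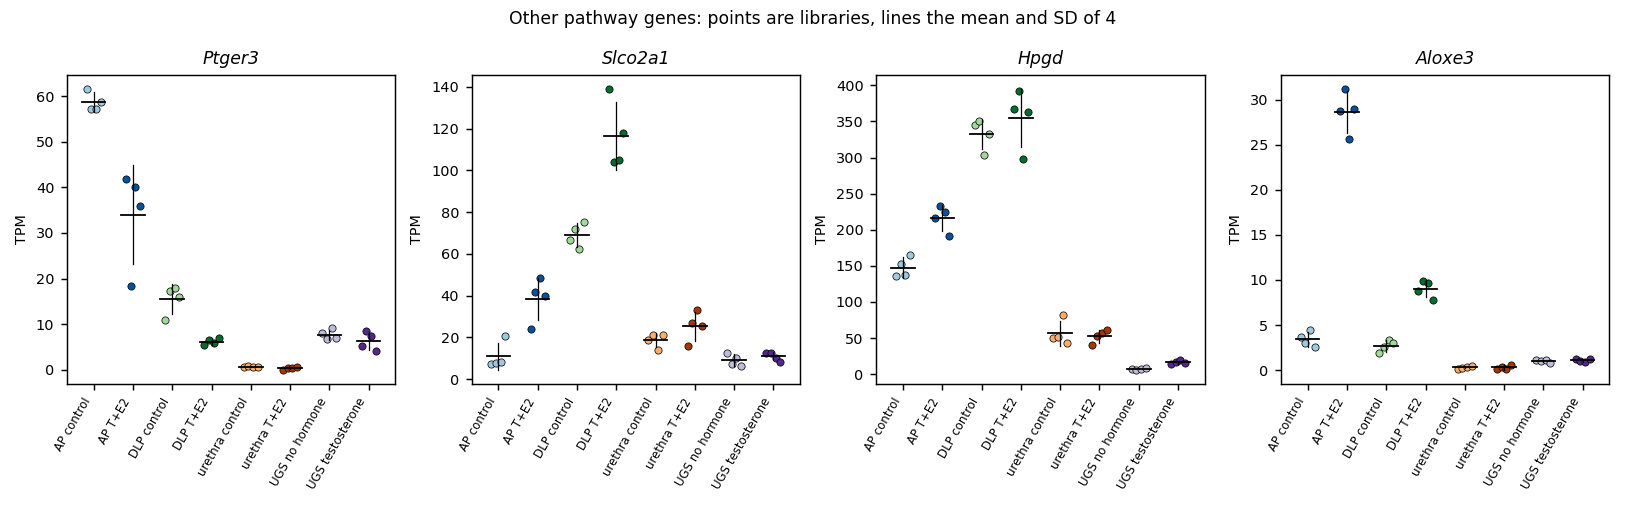
TPM of Ptger3, Slco2a1, Hpgd and Aloxe3 by group; points are libraries, horizontal lines the mean and vertical lines the SD of 4. Ptger3 is lower and Slco2a1 and Aloxe3 are higher in T+E2 than in control in both prostate lobes, and Aloxe3 reaches 25.64 to 31.23 TPM in AP T+E2.

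Of the lipoxygenase branch, Aloxe3 (a lipoxygenase of epidermal type) rose in AP from 3.4 ± 0.81 to 28.7 ± 2.3 TPM and in DLP from 2.7 ± 0.64 to 9.02 ± 0.96 TPM (SD, n = 4; log2 differences 2.77 ± 0.13 and 1.45 ± 0.14, limma adjusted p = 1.26e-07 and 7.62e-05). Ggt1 and Mgst1, enzymes of glutathione conjugate handling that can act on leukotrienes, rose in AP by log2 differences of 1.82 ± 0.12 and 1.86 ± 0.16 (adjusted p = 1.72e-06 and 1.02e-05). Also in AP, Slco4a1, an organic anion transporter, rose by 0.89 ± 0.12 and the aldo-keto reductase Akr1b8 by 0.73 ± 0.11 (adjusted p = 0.000287 and 0.000478). In DLP, the aldo-keto reductase Akr1c14 rose from 0.68 ± 0.20 to 4.42 ± 2.59 TPM (1.59 ± 0.27, adjusted p = 0.00359), and the phospholipase Pla2g12a fell by 0.45 ± 0.13 (adjusted p = 0.0471). In UGS, the transporter Abcc4 and the dipeptidase Dpep1 rose by 0.96 ± 0.17 and 1.01 ± 0.15 (adjusted p = 0.0237 and 0.0108), and Akr1c14 fell by 1.17 ± 0.18 (adjusted p = 0.0108).

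The lists were also counted with doubtful libraries left out. Without AP libraries 9, 17 and 18, limma called 6 higher and 2 lower of 11 release enzymes, 1 higher of 6 other synthases, 4 higher and 2 lower of 8 breakdown and transport genes, 3 lower of 3 receptors and 3 higher of 10 lipoxygenase branch genes, where 30.3% of 12168 genes were called. Ptger3 at -1.06, Slco2a1 at 1.89, Hpgd at 0.66 and Aloxe3 at 2.74 were still called. Without DLP libraries 18 and 24, where 5.54% of 12943 genes were called, the pathway calls in DLP were Slco2a1 (0.80), Ptger3 (-1.24) and Aloxe3 (1.5), while Pla2g12a (-0.43, adjusted p = 0.184) was lost and Akr1c14 fell below the filter and was not tested. These alternatives were chosen after seeing the data.

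The genes whose log2(TPM + 1) pattern was most like each member, by Pearson r over the 32 libraries and among 12603 genes, are given as a description. The libraries share tissue, treatment and library composition. For Ptges they were Serpine2 (r = 0.975), Itga3 (0.971) and Dkkl1 (0.971). Serpine2, a secreted serine protease inhibitor, stood at 183.04 to 382.87 TPM in AP control, 1329.8 to 1667.91 in AP T+E2, 711.92 to 846.17 in DLP control and 1069.21 to 1272.47 in DLP T+E2, so it shared both the tissue order and the rises of Ptges. For Ptgs1 they were Zfp697 (0.957), Lipc (0.952) and Mfsd2a (0.949). Lipc, hepatic lipase, went from 13.5 ± 0.80 to 4.8 ± 0.63 TPM in AP and from 9.07 ± 2.87 to 4.26 ± 0.26 TPM in DLP (SD, n = 4).

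For Ptgs2 the nearest were Kcnj16 (0.964), Serpina1f (0.941) and Aqp9 (0.933). Serpina1f stood at 56.24 to 138.36 TPM in DLP and at 25.1 TPM in AP T+E2 library 17, against 0 to 1.4 TPM in the other 7 AP libraries. Ptgs2 was likewise high in DLP and in that 1 AP library. For Ptgds they were Cd9 (0.908), Wfdc15b (0.899) and Agt (0.894), the weakest likeness of the 7. Wfdc15b, which is also on the epididymis and vas deferens list, stood at 510.9 to 636.41 TPM in urethra control and 815.84 to 886.1 TPM in urethra T+E2, and its 3 highest AP values were in libraries 17, 18 and 9. For Ptges2 the nearest were Atp5g3 (0.966), Ndufa12 (0.965) and Cyc1 (0.962), all of mitochondrial oxidative phosphorylation. Like Ptges2, they had their highest group means in the urethra, whose libraries were rich in skeletal muscle transcripts. For Ptges3 they were Ube2d2 (0.984), Phax (0.983) and Snhg1 (0.981), and for Ptgis Shf (0.966), Numbl (0.966) and Crtap (0.963), which like Ptgis were highest in UGS.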

How the data were processed

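RNA abundance was measured by RNA sequencing. The authors deposited TPM per gene in a single table. FastQC, STAR, RSEM and edgeR, and the mouse build mm9, are named in the submitters' processing notes without roles or versions. Tested on the table, the highest group mean of any gene was at least about 5.0 TPM, so genes low everywhere are absent, and a library summed to 994133 to 997961 TPM. The names of all 32 columns matched the labels, and no pair held identical values.

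The genes and lists were chosen with earlier results of these data known. Genes with at least 1 TPM in at least 4 libraries of a fit were tested on log2(TPM + 1) with limma 3.58.1 (R 4.3.3, mean-variance trend), with p-values adjusted by Benjamini-Hochberg over all genes tested. Fold changes are on that scale, which understates changes of low genes. Hormone comparisons used the 8 libraries of a tissue, tissue comparisons the 12 untreated adult libraries, and differences of effect the 24 adult libraries. The fit was tested on simulated data. Named pathway genes were those called in a hormone comparison, at most the 6 with the smallest p in each, and each is described in every tissue where it bears on the result; likeness took the 3 highest Pearson r per member. Promoter windows came from RefSeq on GRCm38.p6, and no coordinates of mm9 are given. The alternatives tried were a pseudocount of 0.1 or 5, a filter of 5 TPM or none, median-of-ratios and quantile scaling, arrayWeights, no trend, robust hyperparameters, an exact permutation test, the replicate block and leaving out libraries. Figures were drawn with matplotlib 3.10.9. Titles name libraries by number or letter.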

Additional observations from a re-analysis of the deposited data

Results flagged for a closer look

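In 6 of 56 groups of 4 libraries, 1 library stood apart from the other 3 by Dixon's ratio of gap to range at its 95% critical value; chance gives about 2.8. These were Ptgs2 in AP T+E2 library 17 at 32.09 TPM, Ptgds in AP control library 9 at 7 TPM, Ptgs1 in DLP control library 7 at 48.66 TPM, Ptges in urethra control library 8 at 28.76 TPM and in urethra T+E2 library 1 at 19.6 TPM, and Ptges2 in urethra control library 10 at 24.35 TPM. The first 2 of these AP libraries also held 99150 and 54220 TPM of seminal vesicle transcripts, and their part was not tested.

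The T+E2 effect differed between tissues, by limma's test of the difference over 24 libraries, for Ptgs1 between AP and DLP (-0.774 on the log2 scale), between AP and urethra (-1.58) and between DLP and urethra (-0.806), and for Ptges between AP and DLP (1.243) and between AP and urethra (1.751).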

How the results depend on the processing

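Of 1470 member values under alternatives, 43 lost a call, 16 gained one, 0 called values reversed and 49 uncalled values changed sign. Among the 7 genes, the exact permutation test called 0 in AP, 0 in DLP and 0 in the urethra, but with 70 assignments its smallest p is 0.0286 and it called 0 genes of the whole table in any hormone comparison, so it says nothing about stability; limma had 5629, 3264 and 1908 genes at an unadjusted p under 0.05 there. In DLP 2 were called without the libraries rich in skeletal muscle transcripts. In the urethra 0 were called with no filter, 0 without the trend, 0 with robust hyperparameters and 3 with arrayWeights (Ptgds, Ptges and Ptges2), and 0 to 1 on leaving out a library. In UGS 4 were called with arrayWeights (Ptgs1, Ptgds, Ptges and Ptges3) and 0 to 1 on leaving out a library. For the DLP minus urethra difference 2 were called with quantile normalization and 0 to 1 on leaving out a library. Over all genes that quantile fit called 408 higher and 514 lower, against 332 and 158 as reported. The cause was not tested.

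Counts over all genes ranged, the permutation test aside, from 3393 to 5099 in AP (4323 as reported), 717 to 2228 in DLP (1405), 9 to 2335 in the urethra (47) and 94 to 7616 in UGS (230), and for differences of effect from 706 to 2675 for AP minus DLP (1408), 2233 to 4947 for AP minus urethra (3290) and 371 to 1545 for DLP minus urethra (490). The highest were with arrayWeights except in DLP (quantile normalization).

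Equal numbers or letters were not taken to pair libraries: correlations of same-numbered deviations ran from -0.151 to 0.626, the highest for UGS cultures H, and UGS shares only 2 letters. With the replicate block, 1 gene was called in UGS (Ptges, log2 difference 0.46, adjusted p = 0.0098), where calls over all genes went from 230 to 2978. For the differences of effect 1 was called for AP minus DLP and 0 for DLP minus urethra. Over all genes the calls went from 1408 to 706 and from 490 to 382. Ptgs1 was lost in both (-0.95 and -0.63, limma adjusted p = 0.0676 and 0.284). The untreated Ptgis calls of AP against DLP and urethra were also lost (-0.24 and -0.27, adjusted p = 0.0957 and 0.0532). Without depth, no counting error can be given.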
